A study of Mus musculus with 24 samples.

Results

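The cytosolic ribosomal protein (RP) genes were taken from the RPKM table by their symbols: every row named Rpl or Rps with a number and no more than an a, l or x after it, apart from symbols that end in an l, together with Rplp0, Rplp1, Rplp2 and Rpsa. This gave 76 of the 22889 rows of the table, of which 43 encode proteins of the large (60S) subunit, 30 encode proteins of the small (40S) subunit and 3 encode the P-stalk of the large subunit. RP paralogs with symbols of their own (8 rows), pseudogene rows (14 rows), Fau, Rack1 and the numbered symbol Rps3a1 were kept apart. All 76 genes were above 0 in all 24 samples, with a lowest value of 5.24 RPKM (reads scaled to the length of the transcript and to the mapped reads of the library), so a filter on low values removed none of them.

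Cytosolic ribosomes translate the messenger RNAs of the nucleus and are assembled in the nucleolus from ribosomal RNA and a single copy of most RPs, while the acidic stalk proteins enter in several copies. RP messenger RNAs are among the most abundant of growing cells, and many of them begin with a pyrimidine tract (the 5' terminal oligopyrimidine or TOP motif) through which their translation follows mTOR signalling. Ribosome production is known to be high in pluripotent and dividing cells and to fall as neurons become postmitotic. RPs that are made in excess are degraded, and some unassembled RPs signal to p53.

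The study compared neurons that resist degeneration in amyotrophic lateral sclerosis with neurons that do not, by sequencing motor neurons made from mouse embryonic stem cells (mESCs). Oculomotor (OMN) cultures came from mESCs that carry an Islet1-GFP reporter and express Phox2a under a nestin enhancer, and were patterned with 250 nM SAG, a smoothened agonist, and 100 ng/ml FGF8. Spinal (SC) cultures came from Hb9-GFP mESCs patterned with 500 nM SAG and 100 nM retinoic acid. Both were patterned for 5 days as embryoid bodies and sorted by FACS into a GFP-positive and a GFP-negative fraction, which gave 4 groups of 6 polyadenylated RNA libraries (SMART-seq2, without molecular identifiers). The parental line, the reporter, the Phox2a transgene and the patterning factors all differ between the cultures, so their parts in any OMN and SC difference cannot be told apart. The GFP-negative fraction is whatever did not carry the reporter, not a cell type. In bulk samples a gene's level also cannot separate fewer cells of a type from less RNA per cell.

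Depth, estimated from the steps between low RPKM values, ran from 748307 to 4627905 reads in the 16 samples numbered 1 to 4 and from 4785084 to 7608546 reads in the 8 samples numbered 5 and 6. Nothing in the labels says that samples of a group came from separate cultures, so p-values measure the spread between these samples, which may be technical. Summed RPKM of 12 neuron markers lay between 1752 and 3969 in the OMN GFP-positive samples and between 33.8 and 75.8 in the OMN GFP-negative samples. In the SC GFP-positive samples this sum lay between 652 and 2815, except in sample 4, where it was 100.0, beside 117 in its GFP-negative partner. The library labelled SC GFP-positive 4 thus stood at the level of its GFP-negative partner in neuron markers, against its label. High pluripotency markers were not particular to it. The 19 markers summed to 5796 RPKM in that library (6509 in its GFP-negative partner) and to 12867 RPKM in SC GFP-positive 5 (400 in its partner). In SC GFP-positive samples 1, 2 and 6 the sum was also above that of the partner, and in sample 3 it was below. In the SC GFP-negative sample 2, 3 gene models (Gm10800, Gm10801 and Gm21738) held 68.8% of all RPKM, which lowers every other gene of that sample, and in its GFP-positive partner they held 17.8%. Comparisons with spinal samples are also given without 1 or more of these libraries.

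Some of the RP genes share a pyrimidine tract at the annotated start of transcription, a feature that played no part in their choice. RefSeq (GRCm38.p6) gave a start for 56 of the 76 RP genes, and 13 of these (23.2%) had a C at the start followed without a break by C or T for at least 5 bases in all, against 428 of 14855 genes of the table with a start (2.88%). None of 69 genes for mitochondrial RPs had such a tract, and 2 of 34 translation factors (5.88%) had one. Start windows are shown for 6 RP genes with a tract, chosen among the genes described further on, so that the tract can be seen, and for Rpl5 and the paralogs Rpl22l1 and Rpl39l, which have none at that base. Each line is the coding strand from 8 bases before the start to 16 bases from it, 5' to 3', and the capitals mark the tract.
Rpl35a: ttgccttcCTCTTTCCgccatctt
Rpl38: gcctcgttCTTTCCCCgttctctt
Rpl15: aaagccttCTTCCTTTCCTCTggc
Rplp2: gcgtcttcCTTTCgccgccggacg
Rps6: agtcgggcCTCTTTTTCgtgacgc
Rps27: ctttcgctCCTTTCCggcggtgac
Rpl5: tcgcttgcgtgctggtggtgctac
Rpl22l1: gcaagcccgttctcttcccacggc
Rpl39l: gcctttccggatttccggtggtcg
The windows lie at chr16:33056474-33056497 (plus strand), chr11:114668572-114668595 (plus strand), chr14:18270971-18270994 (minus strand), chr7:141447643-141447666 (plus strand), chr4:86857352-86857375 (minus strand), chr3:90213633-90213656 (minus strand), chr5:107900520-107900543 (plus strand), chr3:28805500-28805523 (plus strand) and chr16:10170220-10170243 (plus strand), in that order. Where a gene had more than 1 RefSeq start, the start with the longest tract was taken, for RP genes and all others alike. Of the genes shown only Rpl35a had more than 1, with 3 starts. An annotated start is 1 base and the tract is a match of letters at it, not a measured site. Between OMN fractions the median log2 difference was -0.92 for the 13 genes with a tract and -0.91 for the 43 without. A run of C and T that did not begin with a C at that base counted as none, as in Rpl27a. The split therefore cannot compare messenger RNAs with and without a tract.

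RP genes were among the highest rows of the table. Their means over the 24 samples had a median of 675 RPKM, 74 of the 76 exceeded 100 RPKM, and 25 of the 71 genes of the table above 1000 RPKM were RP genes. The highest was Rplp1, a P-stalk protein (mean 4517 RPKM), followed by Rpl36 (2676 RPKM) and Rpl38 (2463 RPKM), both of the 60S subunit. The lowest were Rpl13a (49.2 RPKM), Rpl35a (71.3 RPKM) and Rpl21 (109 RPKM), a 91.7-fold spread. RPKM is per length, but these levels are uncertain because RP genes have many processed pseudogenes. Between 0% and 96.7% of the 43-base subsequences of an RP gene (43 bases being the shorter read length used) also occurred in another annotated gene (median 40.4%), and 30 of the 76 genes shared over 50%. Rpl13a shared 42.6%, and its pseudogene row Rpl13a-ps1 had a mean of 106 RPKM, above that of the gene itself. Across the 76 genes the share of common subsequences had a Spearman correlation of 0.059 with the mean level and of -0.023 with the OMN fraction difference, over genes that are not independent.

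**Figure D1:**
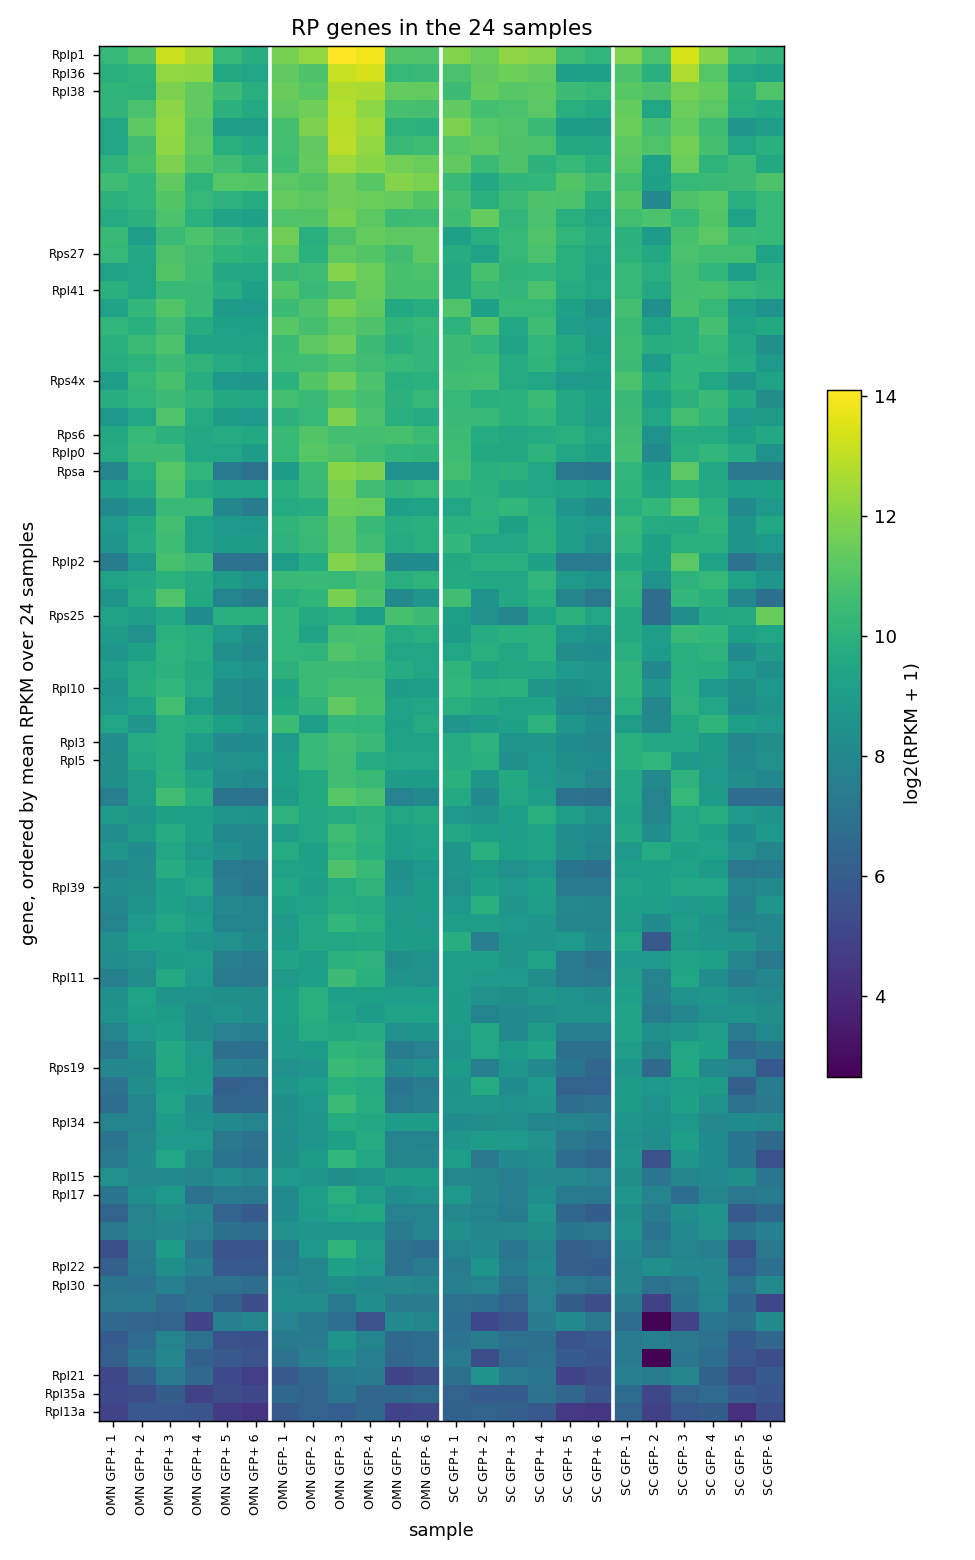
Heat map of log2(RPKM + 1) of the 76 RP genes (rows, ordered by mean RPKM over 24 samples) in the 24 samples (columns, 6 per group, split by white lines). Symbols mark genes described in the text, from Rplp1 at the top to Rpl13a at the bottom, and whole columns are brighter or darker, with the OMN GFP-negative samples 3 and 4 the brightest.

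Summed over the 76 genes, RP messenger RNA made up between 4.67% and 35.7% of all RPKM in a sample. In the OMN GFP-positive samples 1 to 6 the share was 8.24%, 13.02%, 24.5%, 16.2%, 7.29% and 6.54%. In the OMN GFP-negative samples 1 to 6 it was 15.8%, 19.4%, 35.7%, 29.6%, 11.6% and 13.1%. The groups overlapped, but within each of the 6 pairs the GFP-positive fraction was lower, at 0.499 to 0.686 of its GFP-negative partner. In the SC GFP-positive samples 1 to 6 the share was 17.2%, 14.4%, 14.7%, 13.8%, 7.999% and 6.87%, and in the SC GFP-negative samples 1 to 6 it was 18.1%, 4.67%, 21.1%, 14.4%, 7.33% and 8.54%. No common direction was seen in the spinal pairs, where the ratio of GFP-positive to GFP-negative was 0.952, 3.09, 0.696, 0.956, 1.09 and 0.805. The ratio of 3.09 belongs to pair 2, in which the 3 gene models took most of the GFP-negative total, and with a total that leaves out mitochondrial genes and the 3 gene models it was 1.06.

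**Figure D2:**
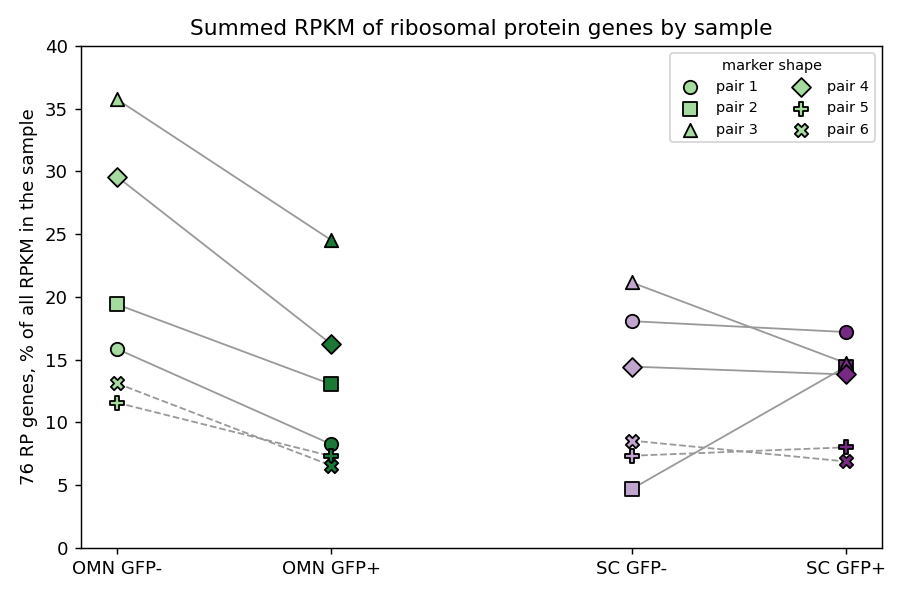
Share of the 76 RP genes in the summed RPKM of each sample (y axis, %), with lines that join the GFP-negative and GFP-positive fraction of the same number (solid, samples 1 to 4; dashed, samples 5 and 6). All 6 OMN lines go down from GFP-negative to GFP-positive, and the SC lines go up in 2 pairs and down in 4.

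As group means the share was 12.6% ± 6.91 (SD, n = 6) in OMN GFP-positive, 20.9% ± 9.71 in OMN GFP-negative, 12.5% ± 4.11 in SC GFP-positive and 12.4% ± 6.53 in SC GFP-negative samples. The share also differed between replicate sets. Samples 5 and 6 had a mean share of 8.65% ± 2.39 (SD, n = 8) and samples 1 to 4 had 17.6% ± 7.57 (SD, n = 16), and the deeper samples were those with the lower share. Within samples 1 to 4 the OMN fractions had 15.5% ± 6.84 and 25.1% ± 9.16 (SD, n = 4 each), and within samples 5 and 6 they had 6.91% ± 0.53 and 12.3% ± 1.09 (SD, n = 2 each), so the GFP-positive mean was the lower in both sets. From samples 1 to 4 to samples 5 and 6 the median log2 difference of the RP genes was -0.94, -0.80, -1.12 and -0.93 in OMN GFP-positive, OMN GFP-negative, SC GFP-positive and SC GFP-negative samples, against -0.27, -0.18, -0.19 and -0.18 over all genes above 0 in at least 2 samples of the group. What set samples 5 and 6 apart is not given in the labels, and its part in the RP levels was not tested.

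The first question was whether the fractions of the OMN culture differed. Values were compared as log2(RPKM + 1) with limma over all genes, and a gene was called at a Benjamini-Hochberg adjusted p under 0.05. All 76 RP genes had a lower mean in OMN GFP-positive than in OMN GFP-negative samples, with log2 differences between -1.50 and -0.42 and a median of -0.92 (1.89-fold). The median over all 22179 genes tested was 0, with 48.8% below 0, and the median over 541 other genes with a mean above 100 RPKM was -0.25, with 66.5% below 0. Without regard to pairs, 2 of the 76 were called lower (2.63%), against 2.34% of all genes tested, and 0 higher, against 3.81%. With median-ratio scaling 9 were called lower, against 3.79% of all genes. With a total that leaves out mitochondrial genes and the 3 gene models, the median of the 76 was -0.70. All 76 were below 0 with that total, and 1 was called lower, against 1.45% of all genes. An unadjusted p under 0.05 was found in 37 of 76 (48.7%, against 18.1% of all genes) without pairs. With that total it was found in 15 (19.7%, against 17.3%). Fractions of one number within a culture deviated together in every pair, although the own number was not the best match in spinal pair 6, and with pairs as blocks 67 of the 76 were called lower (88.2%), against 8.21% of all genes tested, and none higher, against 8.22%. Pair by pair, 75 of the 76 were lower in the GFP-positive fraction in 6 of 6 pairs (98.7%), against 11.2% of all genes tested. The exception was Rpl21, lower in 4 of 6 pairs. None was higher in 6 of 6 pairs, against 12% of all genes tested. RP genes rose and fell together between samples (median correlation of a gene with the mean of the others 0.85). Counts of RP genes here and below are therefore not counts of independent observations.

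**Figure D3:**
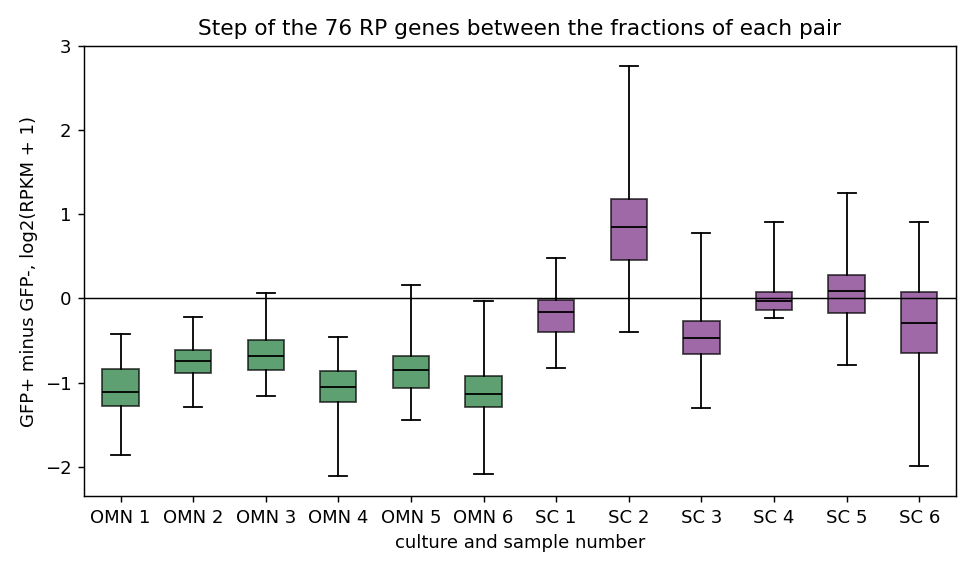
Log2 difference between the GFP-positive and GFP-negative fraction of each pair (y axis) for the 76 RP genes, with boxes from the first to the third quartile, the median as a line, and whiskers to the lowest and highest gene. The 6 OMN medians lie between -1.13 and -0.68, and the 6 SC medians between -0.47 and 0.85.

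The 3 groups of RPs had medians near one another in the OMN culture. The median log2 difference was -0.92 over the 43 genes of the 60S subunit, -0.90 over the 30 genes of the 40S subunit and -1.11 over the 3 P-stalk genes. The summed RPKM of 60S genes was between 1.01 and 1.38 times that of 40S genes in the 24 samples, and the 2 highest ratios, 1.38 and 1.35, were those of spinal pair 2. The mean of this ratio was 1.11 ± 0.029 (SD, n = 6) in OMN GFP-positive and 1.11 ± 0.069 in OMN GFP-negative samples. In 6 RP genes the OMN GFP-positive and GFP-negative samples did not overlap (7.89%, against 2.48% of all genes tested), among them Rpl30, Rpl35a and Rps6. None lay higher without overlap (0%, against 4.04%).

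Rpl35a and Rpl30, both of the 60S subunit, were the 2 genes called without regard to pairs, and calls of other single RP genes in the OMN culture are given with pairs as blocks. Rpl35a (chr16:33056453-33060189, plus strand, GENCODE M21 on GRCm38), one of the RP genes mutated in Diamond-Blackfan anaemia, ran from 29.3 to 63.8 RPKM (median 37.9) in the OMN GFP-positive samples and from 76.9 to 139 RPKM (median 89.7) in the OMN GFP-negative samples. Its highest GFP-positive value lay below its lowest GFP-negative value, and the log2 difference was -1.27 ± 0.28 (SE, adjusted p = 0.00673), a 2.41-fold step in log2(RPKM + 1). In the spinal culture it ran from 50.6 to 129 RPKM (median 69.0) in the SC GFP-positive samples and from 32.5 to 104 RPKM (median 68.3) in the SC GFP-negative samples, with overlap. Rpl30 (chr15:34440505-34443640, minus strand) ran from 104 to 203 RPKM (median 126) in the OMN GFP-positive samples and from 240.2 to 323 RPKM (median 269) in the OMN GFP-negative samples. These groups did not overlap either, and the log2 difference was -1.02 ± 0.26 (SE, adjusted p = 0.0178). Both calls held when any 1 of the 12 OMN samples was left out, with adjusted p up to 0.0207 for Rpl35a and up to 0.0472 for Rpl30, and both were lost within samples 1 to 4 alone and within samples 5 and 6 alone, where adjusted p was up to 0.133 for Rpl35a and up to 0.163 for Rpl30. That of Rpl30 was also lost with a total that leaves out mitochondrial genes and the 3 gene models. Of Rpl30, 74.9% of the 43-base subsequences were shared with other genes, and of Rpl35a 30.5%.

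The P-stalk is the arm of the large subunit that binds the elongation factor GTPases. Rplp0 is its base, and ran from 511 to 1475 RPKM (median 784) in the OMN GFP-positive samples and from 1119.8 to 2267 RPKM (median 1375) in the OMN GFP-negative samples. Rplp1 ran from 896 to 9417 RPKM (median 1684) in the OMN GFP-positive samples and from 1994 to 17721 RPKM (median 4187) in the OMN GFP-negative samples. Rplp2 ran from 123 to 1778 RPKM (median 312) in the OMN GFP-positive samples and from 288 to 3882 RPKM (median 686) in the OMN GFP-negative samples. All 3 spanned wide ranges within a group, with the OMN GFP-negative samples 3 and 4 at the top for Rplp1, and all were lower in the GFP-positive fraction in 6 of 6 pairs. With pairs as blocks the log2 difference was -0.77 ± 0.24 (SE, adjusted p = 0.0428 with pairs as blocks) for Rplp0, -1.11 ± 0.26 (adjusted p = 0.0107) for Rplp1 and -1.18 ± 0.23 (adjusted p = 0.00313) for Rplp2. Without pairs none of the 3 was called, with adjusted p of 0.399, 0.517 and 0.536.

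Among the other 60S genes, Rpl3 lies near the peptidyl transferase centre. It ran from 285 to 958 RPKM (median 420.1) in the OMN GFP-positive samples and from 466 to 1652 RPKM (median 955) in the OMN GFP-negative samples, with overlap, and the difference was -0.92 ± 0.19 (SE, adjusted p = 0.00454 with pairs as blocks). Rpl5 and Rpl11 form a particle with 5S ribosomal RNA that can bind the p53 ligase Mdm2. Rpl5 ran from 312 to 899.6 RPKM (median 375) in the OMN GFP-positive samples and from 554 to 1543 RPKM (median 799) in the OMN GFP-negative samples, and the difference was -0.91 ± 0.14 (SE, adjusted p = 8.98e-04 with pairs as blocks). Rpl11 ran from 145 to 796 RPKM (median 259) in the OMN GFP-positive samples and from 348 to 1465 RPKM (median 509.6) in the OMN GFP-negative samples, and the difference was -1.06 ± 0.20 (SE, adjusted p = 0.00311 with pairs as blocks). Both genes were lower in the GFP-positive fraction, by 1.88-fold and 2.09-fold, and in 6 of 6 pairs. Rpl10, which joins late and is needed for the subunits to meet, ran from 280.0 to 1224 RPKM (median 626) in the OMN GFP-positive samples and from 509 to 1713 RPKM (median 1018) in the OMN GFP-negative samples, with a difference of -0.74 ± 0.19 (SE, adjusted p = 0.0172 with pairs as blocks). Rpl38, known for its part in the translation of Hox messenger RNAs in the embryo, ran from 948 to 3659.5 RPKM (median 1297) in the OMN GFP-positive samples and from 2271 to 6776 RPKM (median 2727) in the OMN GFP-negative samples, with a difference of -1.16 ± 0.24 (SE, adjusted p = 0.00450 with pairs as blocks). The OMN GFP-positive and GFP-negative ranges overlapped in each of these genes.

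Rpl22, an RP that binds RNA outside the ribosome as well, ran from 56.1 to 322 RPKM (median 113) in the OMN GFP-positive samples and from 124 to 581 RPKM (median 226) in the OMN GFP-negative samples, and the difference was -1.13 ± 0.17 (SE, adjusted p = 7.14e-04 with pairs as blocks). Rpl39, a small protein of the exit tunnel, ran from 141 to 724 RPKM (median 322) in the OMN GFP-positive samples and from 359.8 to 1090.1 RPKM (median 617) in the OMN GFP-negative samples, and the difference was -0.96 ± 0.19 (SE, adjusted p = 0.00386 with pairs as blocks). Rpl41, the smallest RP, ran from 574 to 1378 RPKM (median 927) in the OMN GFP-positive samples and from 1374 to 2755 RPKM (median 1845) in the OMN GFP-negative samples, and the difference was -1.03 ± 0.23 (SE, adjusted p = 0.00841 with pairs as blocks). Rpl36 ran from 696 to 4945 RPKM (median 1049.6) in the OMN GFP-positive samples and from 1245 to 10691 RPKM (median 2229) in the OMN GFP-negative samples, and the difference was -0.99 ± 0.28 (SE, adjusted p = 0.0276 with pairs as blocks). These 4 genes were lower in the GFP-positive fraction in 6 of 6 pairs, and in each the groups overlapped, in Rpl41 by little, since its highest GFP-positive value of 1378 RPKM lay just above its lowest GFP-negative value of 1374 RPKM. Rpl13a and Rpl21, low genes of the 60S subunit, had small differences. Rpl13a ran from 20.0 to 53.2 RPKM (median 40.8) in the OMN GFP-positive samples and from 29.6 to 86.6 RPKM (median 62.7) in the OMN GFP-negative samples, with a difference of -0.57 ± 0.22 (SE, adjusted p = 0.106 with pairs as blocks), and Rpl21 ran from 26.3 to 163 RPKM (median 51.8) in the OMN GFP-positive samples and from 32.1 to 182 RPKM (median 74.2) in the OMN GFP-negative samples, with a difference of -0.42 ± 0.25 (SE, adjusted p = 0.314 with pairs as blocks). Neither was called, and Rpl21 had the smallest difference of the 76.

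On the 40S side, Rps6 is the RP phosphorylated by S6 kinase downstream of mTOR. It ran from 758 to 1269 RPKM (median 813) in the OMN GFP-positive samples and from 1385 to 2016 RPKM (median 1648) in the OMN GFP-negative samples, without overlap, and the difference was -0.86 ± 0.21 (SE, adjusted p = 0.0136 with pairs as blocks). Rpsa, also known as the laminin receptor, ran from 121 to 2170.0 RPKM (median 592) in the OMN GFP-positive samples and from 357 to 4360.1 RPKM (median 951) in the OMN GFP-negative samples, and the difference was -1.15 ± 0.22 (SE, adjusted p = 0.00357 with pairs as blocks). Rps4x, the X-linked form of an RP with a Y-linked copy in humans, ran from 403 to 1737 RPKM (median 711) in the OMN GFP-positive samples and from 906 to 3192 RPKM (median 1424) in the OMN GFP-negative samples, and the difference was -0.999 ± 0.20 (SE, adjusted p = 0.00436 with pairs as blocks). In these 3 genes the drop was seen in 6 of 6 pairs. Rps19, the RP most often mutated in Diamond-Blackfan anaemia, ran from 177 to 789 RPKM (median 261) in the OMN GFP-positive samples and from 264 to 1330.3 RPKM (median 369) in the OMN GFP-negative samples, with a difference of -0.74 ± 0.23 (SE, adjusted p = 0.0444 with pairs as blocks). Rps27 ran from 759 to 1904 RPKM (median 1183) in the OMN GFP-positive samples and from 1006 to 2448 RPKM (median 2278) in the OMN GFP-negative samples, with a difference of -0.66 ± 0.21 (SE, adjusted p = 0.0483 with pairs as blocks). Rps25, which some viral internal ribosome entry sites require, ran from 301 to 956 RPKM (median 652) in the OMN GFP-positive samples and from 548 to 1732 RPKM (median 1099) in the OMN GFP-negative samples, and its difference of -0.74 ± 0.33 (SE, adjusted p = 0.161 with pairs as blocks) was not called although it was lower in 6 of 6 pairs. The 9 genes not called with pairs as blocks included Rpl13a, Rpl21 and Rps25.

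Fau and Rack1, a ubiquitin-like fusion of an RP and the scaffold protein of the 40S head, were also called lower with pairs as blocks, with differences of -0.65 ± 0.21 (SE, adjusted p = 0.0470 with pairs as blocks) and -0.87 ± 0.16 (SE, adjusted p = 0.00217 with pairs as blocks). Rps3a1, a 40S gene, was called lower, with -0.84 ± 0.21 (SE, adjusted p = 0.0137 with pairs as blocks). Rpl22l1, the paralog of Rpl22, ran from 12.8 to 42.5 RPKM (median 24.4) in the OMN GFP-positive samples and from 19.8 to 102 RPKM (median 82.3) in the OMN GFP-negative samples. It was lower in the GFP-positive fraction in 6 of 6 OMN pairs, with a difference of -1.41 ± 0.41 (SE, adjusted p = 0.0392) without pairs. That call was lost when any of 9 of the 12 OMN samples was left out (adjusted p up to 0.104) and stood at an adjusted p of 5.58e-04 with pairs as blocks. Rpl22l1 was also lower in 6 of 6 spinal pairs, where the difference of -0.73 ± 0.21 (SE, adjusted p = 0.0798 with pairs as blocks) was not called. Rpl7l1, Rps27l and Rpl36al were lower in 6 of 6 OMN pairs, with differences of -1.19 ± 0.25 (SE, adjusted p = 0.00545 with pairs as blocks), -1.30 ± 0.28 (SE, adjusted p = 0.00624 with pairs as blocks) and -0.79 ± 0.14 (SE, adjusted p = 0.00242 with pairs as blocks). Rps27rt, with a difference of -0.91 ± 0.36 (SE, adjusted p = 0.105 with pairs as blocks), was not called, and Rpl3l stayed at or below 2.15 RPKM in all samples.

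**Figure D4:**
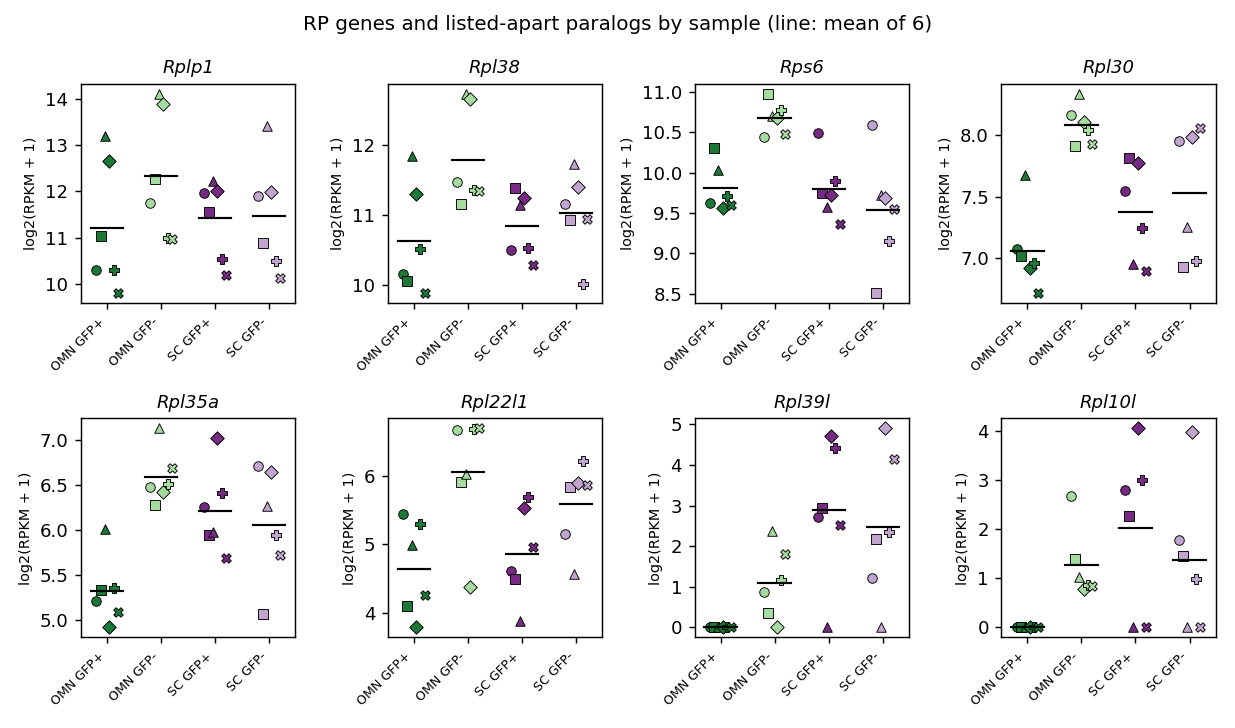
log2(RPKM + 1) of 5 RP genes and 3 paralogs kept apart in the 24 samples, grouped by culture and fraction, with marker shapes for samples 1 to 6 and a line at the mean of 6. For Rpl30 and Rpl35a all OMN GFP-positive points lie below all OMN GFP-negative points, and Rpl39l and Rpl10l are at 0 in all 6 OMN GFP-positive samples.

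The second question was whether the spinal fractions differed, and no RP gene was called (0%, against 0.83% of all genes tested called lower and 0.397% called higher). This held with pairs as blocks, when 1.6% and 1.33% of all genes were called, and 0 RP genes had an unadjusted p under 0.05 without blocks, against 2315 of the 22179 genes tested. The median log2 difference of the RP genes was -0.01, with 41 of 76 below 0 and a range from -0.43 to 0.64. The direction rested on single libraries, since leaving out 1 spinal sample gave medians from -0.17 (without SC GFP-negative 5) to 0.18 (without SC GFP-positive 6, with 16 of 76 below 0). The genes with the lowest p were Rpl34, with a difference of -0.33 ± 0.29 (SE, adjusted p = 0.783), and Rpl39, with -0.43 ± 0.46 (SE, adjusted p = 0.828). Rpl34 ran from 188 to 334 RPKM (median 268) in the SC GFP-positive samples and from 259 to 428 RPKM (median 319) in the SC GFP-negative samples, with overlap, and was lower in the GFP-positive fraction in 6 of 6 pairs, as were Rpl36a and Rps15a, named after their values were seen. These are 3 of 76 genes (3.95%), against 2.6% of all genes tested, and 0 were higher in 6 of 6 pairs, against 2.46%. The spinal groups overlapped in all 76 RP genes, while 0.397% of all genes lay below and 0.0721% above without overlap. Without spinal pair 4, whose GFP-positive library was low in neuron markers, the median was -0.01 and again 0 genes were called. With median-ratio scaling and without the GFP-negative sample 2 it was -0.08 and 0 genes were called. Weights for sample quality gave a median of -0.26, with 74 of 76 below 0 and 0 called.

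The third question was whether the fraction step differed between the cultures. The difference between the OMN and SC steps was below 0 for all 76 RP genes, with a median of -0.91 and a range from -1.46 to -0.39, against a median of 0.01 over all genes tested and -0.32 over the 541 other genes above 100 RPKM. Without pairs 0 of 76 were called (0.0586% of all genes were called lower and 0.262% higher), and 5 had an unadjusted p under 0.05 (among them Rpl17, Rpl30, Rpl35a and Rps6, 6.58%, against 7.13% of all genes), which was 69 of 76 with pairs as blocks (90.8%, against 15.6% of all genes) and 1 with a total that leaves out mitochondrial genes and the 3 gene models. With pairs as blocks 9 of 76 were called lower (11.8%), against 1.19% of all genes tested. They included Rpl35a, with -1.43 ± 0.24 (SE, adjusted p = 0.00981 with pairs as blocks), and Rpl17, a 60S protein at the exit of the tunnel, with -1.46 ± 0.25 (SE, adjusted p = 0.0100 with pairs as blocks). Rpl17 ran from 119.5 to 428 RPKM (median 157) in the OMN GFP-positive samples and from 276 to 914 RPKM (median 439.9) in the OMN GFP-negative samples. In the spinal culture it ran from 154 to 426 RPKM (median 218) in the SC GFP-positive samples and from 109.7 to 396 RPKM (median 189) in the SC GFP-negative samples, and it was higher in the GFP-positive fraction in 5 of 6 spinal pairs and lower in 6 of 6 OMN pairs. Without pairs the adjusted p was 0.161 for Rpl35a and 0.467 for Rpl17. Without spinal pair 4 the median of the 76 was -0.92 and 0 were called without blocks, and with a total that leaves out mitochondrial genes and the 3 gene models it was -0.63.

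**Figure D5:**
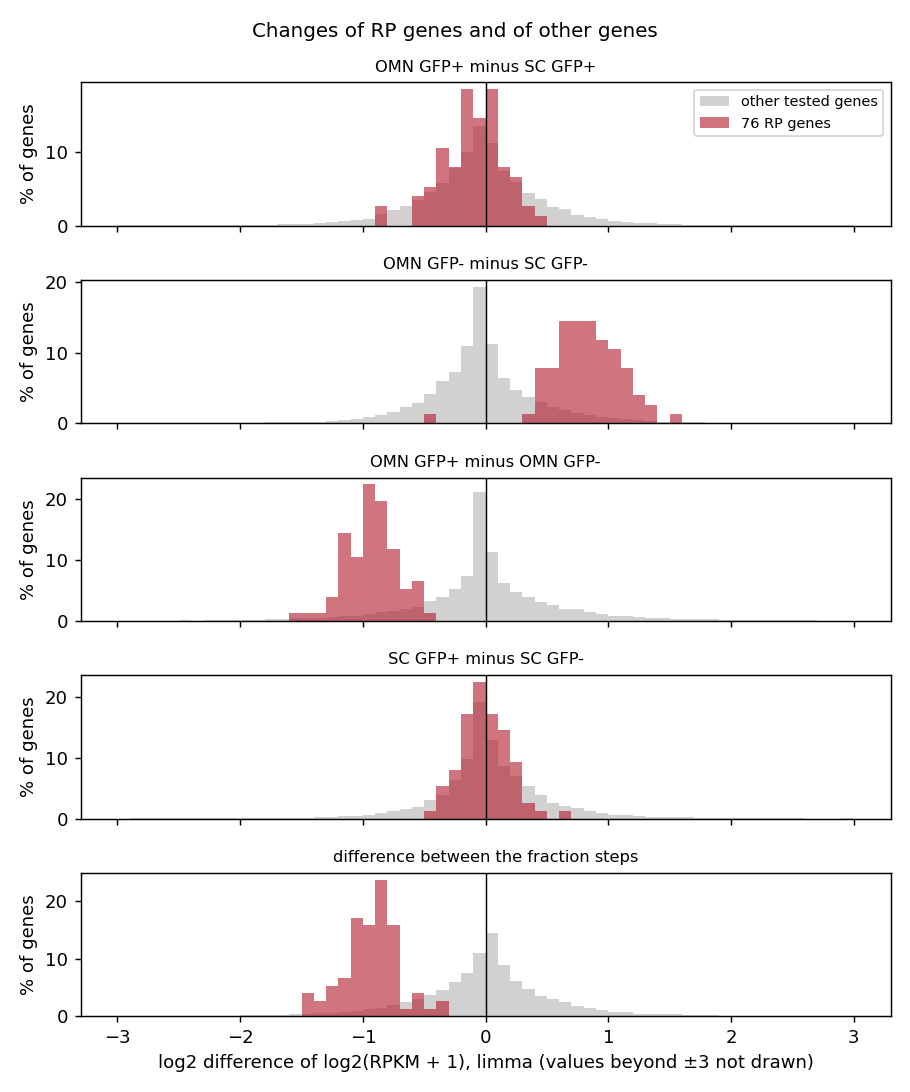
Share of genes (y axis, %) by log2 difference in bins of 0.1 (x axis) for the 76 RP genes (red) and the other genes tested (grey), in the 4 comparisons of groups and in the difference between the fraction steps. The red histogram lies wholly below 0 for OMN GFP-positive minus OMN GFP-negative and for the difference between steps, mostly above 0 for the GFP-negative fractions of OMN minus SC, and around 0 in the other panels.

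The GFP-negative fractions of both cultures were then compared, since they are the reference of the 2 steps. In OMN GFP-negative samples 75 of the 76 RP genes had a higher mean than in SC GFP-negative samples, with a median log2 difference of 0.83 (1.78-fold), against -0.04 over all genes tested and 0.48 over the 541 other genes above 100 RPKM, of which 23.8% were below 0. None was called (0%, against 0.41% of all genes tested called higher and 0.55% called lower), and 24 of 76 had an unadjusted p under 0.05 (31.6%, against 11.3% of all genes). That count was not stable and moved both ways. It was 5 (6.58%, against 13.8% of all genes) with a total that leaves out mitochondrial genes and the 3 gene models. It was 9 (11.8%, against 11%) in a fit of these groups alone and 14 (18.4%, against 10.6%) without SC GFP-negative 2. Without OMN GFP-negative 3 it was 10 (13.2%, against 10.4%), and without OMN GFP-negative 4 it was 12 (15.8%, against 10.1%). Within samples 1 to 4 it was 7 (9.21%, against 8.09%), and within samples 5 and 6 it was 48 (63.2%, against 16.1%). The replicate set as a term gave 48 (63.2%, against 14.5%), and median-ratio scaling gave 36 (47.4%, against 12.5%). Without SC GFP-negative 2 the median was 0.74, and without SC GFP-negative 4 it was 0.91. The exception in direction was Rpl21. The lowest p belonged to Rpl15, a 60S protein, and to Rps6. Rpl15 ran from 316 to 501 RPKM (median 439.8) in OMN GFP-negative and from 138 to 325 RPKM (median 255) in SC GFP-negative samples, and the 2 groups overlapped between 316 and 325 RPKM. Its difference was 0.90 ± 0.26 (SE, adjusted p = 0.1003), and that of Rps6 was 1.14 ± 0.35 (SE, adjusted p = 0.139). One RP gene, Rpl35, named after its values were seen, was higher in all 6 OMN than in all 6 SC GFP-negative samples (1.32%, against 0.397% of all genes tested), and none was lower in this way (0%, against 0.87%). Of Rpl35, 96.7% of the 43-base subsequences were shared with other genes, the highest share of the 76. With the reduced total the median was 0.45, against a median of -0.14 over all genes.

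The last comparison was that of the GFP-positive fractions, sorted as motor neurons by the reporter, although the library labelled SC GFP-positive 4 was low in neuron and motor neuron markers. None of the 76 was called (0%, against 0.353% of 19240 genes tested called higher and 0.249% called lower), and 1 had an unadjusted p under 0.05, against 1951 of all genes. The groups overlapped in all 76, while 0.696% of all genes tested lay lower and 0.733% higher in OMN without overlap. The median log2 difference was -0.10, with 48 of 76 below 0, against -0.04 over all genes tested. Its sign rested on single libraries, with medians from -0.30 (65 below 0, without OMN GFP-positive 3) to 0.07 (30 below 0, without OMN GFP-positive 6). Without OMN GFP-positive 5 it was 0.03, without SC GFP-positive 1 it was 0.04, without SC GFP-positive 4 it was -0.02, and 0 genes were called in each of these fits. The range from -0.90 to 0.47 was set by Rpl35a at the low end and Rps19 at the high end. Rpl35a ran from 29.3 to 63.8 RPKM (median 37.9) in OMN and from 50.6 to 129 RPKM (median 69.0) in SC GFP-positive samples, with a difference of -0.90 ± 0.27 (SE, adjusted p = 0.220). Rpl21 had the second lowest p, with a difference of -0.86 ± 0.60 (SE, adjusted p = 0.662). The median was -0.12 in samples 1 to 4 and -0.02 in samples 5 and 6. With a total that leaves out mitochondrial genes and the 3 gene models it was -0.20 (62 of 76 below 0), against -0.08 over all genes. Weights for sample quality gave -0.25 (60 below 0), against -0.07 over all genes. Median-ratio scaling gave -0.07 (45 below 0), against -0.04, and 0 genes were called in each of these 3 fits. The SE of a single gene lay between 0.24 and 0.84. With 6 samples a group, differences well above their SE could go uncalled, as that of Rpl35a did.

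Rpl39l and Rpl10l are paralogs known mainly from testis. Rpl39l was listed at 0 in all 6 OMN GFP-positive samples and at 0 to 25.3 RPKM (median 6.15) in the SC GFP-positive samples, of which 1 was also at 0. In OMN GFP-negative samples it ran from 0 to 4.20 RPKM (median 1.04) and in SC GFP-negative samples from 0 to 28.9 RPKM (median 3.82). The comparison of GFP-positive fractions had an adjusted p of 0.0683 and so was not called, and it was called in 3 of 10 alternative settings and without SC GFP-positive sample 3 (adjusted p = 0.00242). Rpl10l was also listed at 0 in all 6 OMN GFP-positive samples, and ran from 0 to 15.5 RPKM (median 4.86) in SC GFP-positive samples, of which 2 were at 0 (adjusted p = 0.222). Both had their highest values in spinal pair 4, in which the markers of neurons were low, and no fold is given against a group at 0.

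Other genes of ribosome production were counted by list, beside 2.34% of all genes called lower and 3.81% higher in the OMN culture without pairs and 8.21% lower and 8.22% higher with pairs as blocks. Of 60 genes for ribosome biogenesis, 7 were called lower and 1 higher in OMN GFP-positive than in OMN GFP-negative samples without pairs, and 29 lower and 4 higher with pairs as blocks, with a median of -0.72. Those called lower included Npm1, the nucleolar chaperone nucleophosmin, with -1.80 ± 0.44 (SE, adjusted p = 0.0140), Ncl, nucleolin, with -1.37 ± 0.41 (SE, adjusted p = 0.0478), and Rrs1, which acts in 60S assembly, with -1.64 ± 0.36 (SE, adjusted p = 0.00687). The gene called higher was Myc, a transcription factor that drives RP and ribosome biogenesis genes in dividing cells, with 2.26 ± 0.47 (SE, adjusted p = 0.00417). In the spinal culture 0 of 60 were called without pairs and 1 higher with pairs, with a median of 0.01. Of 42 translation factors, 0 were called in the OMN culture without pairs and 12 lower with pairs as blocks, with a median of -0.35, and 0 in the spinal culture. Of 78 genes for mitochondrial RPs, which build the separate ribosome of that organelle, 2 were called lower in the OMN culture without pairs (Mrpl13 and Mrps16), or 2.56%, near the share of all genes, and 16 lower and 1 higher with pairs, with a median of -0.29, beside -0.92 for the cytosolic RP genes. The 14 RP pseudogene rows had a median of -0.85 in the OMN culture, with 0 called without pairs and 5 lower with pairs.

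Markers of cell types moved with the OMN step. Of 19 pluripotency markers, 13 were called lower in OMN GFP-positive samples, and their summed RPKM lay between 882 and 10021 in OMN GFP-negative and between 32.7 and 287 in OMN GFP-positive samples. The sum was 28.3 to 12867 RPKM in SC GFP-positive and 178 to 6509 RPKM in SC GFP-negative samples, and none of the 19 was at 0 throughout any group. Of 20 proliferation markers, 11 were called lower in OMN GFP-positive samples and 0 in the spinal comparison, with sums of 159 to 963 RPKM in OMN GFP-positive, 699 to 1625 in OMN GFP-negative, 182 to 1298 in SC GFP-positive and 489 to 1426 in SC GFP-negative samples. Of 11 endoderm markers, 2 were called lower in the OMN and 7 in the spinal GFP-positive fraction, with sums up to 269 RPKM in OMN GFP-negative and 430 RPKM in SC GFP-negative samples. Blood and endothelium markers summed to at most 13.2 RPKM in any sample, and 6 of 8 were at 0 in all OMN GFP-positive samples. Mitochondrial genes held 3.80% to 16.7% of RPKM in OMN GFP-positive and 3.43% to 13.6% in OMN GFP-negative samples. The part of these markers and of the mitochondrial share in the RP levels was not tested.

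The median RP gene varied less relative to the other RP genes than in level. The SD over 24 samples of log2(RPKM + 1) had a median of 0.80 over the 76 genes, and of 0.48 once the median RP gene of each sample was subtracted. Rpl9 varied least after that step (SD 0.15) and Rpl23a most (SD 1.60). In some genes the SD rose with the subtraction, as in Rpl23a (from 1.31) and Rps25 (from 0.98 to 1.25). No other set of genes was treated in this way, so whether the drop in the median SD is particular to RP genes was not tested. The correlation of a gene with the mean of the other 75 over the 24 samples, which share depth and total, had a median of 0.85, exceeded 0.90 in 24 genes, and was lowest at -0.18 in Rpl23a. Rpl9 and Rpl23a were named after their values were seen. Of Rpl23a, 87.3% of the 43-base subsequences were shared with other genes, and of Rpl9 22.4%. The part of this in their spread was not tested.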

How the data were processed

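Sorted GFP-positive and GFP-negative fractions of OMN and SC cultures were measured in 24 libraries, 6 per group, grouped by the labels. The authors mapped reads with HISAT2 2.0.3 to mm10 (GRCm38) and deposited 1 table of RPKM values per gene made with rpkmforgenes. The authors ran DESeq2 1.12.4 on counts, which were not used here. Reads were 43 or 51 bases, the annotation is not given in the sources used here, and samples with few mapped reads had been left out by the authors. SMART-seq2 does not keep strand.

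log2(RPKM + 1) was fitted with limma 3.58.1 (R 4.3.3, mean trend) over all genes above 0 in at least 2 fitted samples, on 12 samples for the GFP-positive fractions and on 24 for the other comparisons, with Benjamini-Hochberg adjustment over all genes tested and a threshold of 0.05. A fold change on this scale understates that of low genes. Same-numbered fractions of a culture deviated together in every pair (correlations of deviations from the group means of 0.376 to 0.727 in OMN and 0.420 to 0.660 in SC, over 11876 genes, with the own number the best match in 6 of 6 OMN and 5 of 6 SC pairs), so fits with pairs as blocks are given. Tables and plots were made with Python 3.11.15, numpy 2.4.6, pandas 2.3.3 and matplotlib 3.10.9.

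The RP genes and all lists were chosen with earlier results of these data known. Named genes were, in each comparison, up to 5 genes per direction with the lowest p among those called, or the 2 with the lowest p where none was called, 17 genes by role, the 3 highest and 3 lowest by mean RPKM, and the paralogs with a row. Alternatives were the offset, filter, fitted samples, blocks, replicate sets, quality weights, scaling and each sample left out. RPKM carries a total, so a few abundant genes move all others. Progenitor, mesenchyme and glia lists and snoRNA hosts are not described; the last were not analysed here. Results of some genes are not reported here.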

Additional observations from a re-analysis of the deposited data

Results flagged for a closer look

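In all, 144 sets of 6 samples were examined for a highest or lowest sample far from the others. By Dixon's test at the 95% level 14 had one, and chance gives about 1 in 20 for independent, normally distributed values. RPKM and shares were tested without logarithms, and RP genes rise and fall together, so the 14 cannot be set against that rate. In OMN GFP-positive sample 3, Rpl30 was at 203 RPKM (next 134) and Rpl35a at 63.8 RPKM (next 40.05). In OMN GFP-negative samples, Rpl10l was at 5.39 RPKM in sample 1 (next 1.60), and 3 gene models held 1.26% of RPKM in sample 2 (next 0.305%).

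Spinal pair 2 stood apart by the same measure. The 3 gene models held 17.8% of RPKM in SC GFP-positive sample 2 (next 0.740%) and 68.8% in SC GFP-negative sample 2 (next 5.44%). The ratio of 60S to 40S summed RPKM was 1.35 (next 1.10) and 1.38 (next 1.10) in these samples.

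Single RP genes stood high in other spinal samples. Rps6 was at 1441 RPKM in SC GFP-positive sample 1 (next 952). In SC GFP-negative sample 3, Rpl36 was at 6924 RPKM (next 2211), Rplp1 at 10857 RPKM (next 4048) and Rplp2 at 2338 RPKM (next 809). Rps25 was at 2767 RPKM in SC GFP-negative sample 6 (next 799), and Rpl10l at 14.7 RPKM in SC GFP-negative sample 4 (next 2.41).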

How the results depend on the processing

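The number of RP genes called lower in OMN GFP-positive than in OMN GFP-negative samples depended most on the fit. It was 2 as reported (2.34% of all genes), 67 with pairs within a culture as a replicate block (8.21%), 33 with the replicate number as a block over both cultures (4.81%), 25 with the replicate set as a term (4.15%), 45 with quality weights (9.3%), 9 with median-ratio scaling (3.79%), 1 with the reduced total (1.45%) and 0 within samples 1 to 4 (0.549%), with the share of all genes called lower in parentheses. Leaving out 1 sample each gave 2 to 4 calls, with 4 without OMN GFP-positive sample 3. The pairs block gave 9 calls in the difference between steps, and the number block gave 4 between GFP-negative fractions. The cause was not tested. The numbers do not pair samples across cultures (correlations of -0.172 to 0.706), and neither block changed another count of RP genes called. Counts at an unadjusted p under 0.05 did change with the number block. Between GFP-negative fractions the count went from 24 to 61 (80.3%, against 16.2% of all genes). In the difference between steps it went from 5 to 39 (51.3%, against 10.7%). Between GFP-positive fractions it went from 1 to 2 (2.63%, against 12.4%), below the share of all genes. With the pairs block the count between spinal fractions went from 0 to 3 (3.95%, against 17.6%), also below that share. The other 183 values of counts and shares under an alternative stayed within their limits. Of single named genes, 801 values kept their side of the threshold, 55 passed it newly, 18 fell short of it and 0 turned direction. The fits without spinal pair 4 or without SC GFP-negative sample 2 were chosen after seeing the data. Depth limits low genes, such as the paralogs listed at 0.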
